A study of Caenorhabditis elegans with 23 samples.

Results

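Small RNA of whole Caenorhabditis elegans was compared to see in which genes the difference between Star worms and their own isolate was not the same in the wild isolate MY16 and in the laboratory reference strain N2. The contrast was the interaction (MY16_Star minus MY16) minus (N2_Star minus N2), fitted over all 11 small RNA libraries among the 23 libraries of the series and over every gene with a WormBase gene ID. The 4 groups were MY16_Star with 3 libraries, MY16 with 3, N2_Star with 2 and N2 with 3. The other 12 libraries held messenger RNA (mRNA), 3 from each of the same groups. They are used to set the same contrast and its parts beside it, and for tissue markers. All groups were adults of day 1, grown at 20 °C on the E. coli strain OP-50, and RNA came from whole animals. The labels do not explain the word Star and name no allele, transgene or agent that separates a Star group from its isolate. The series title concerns inheritance of small RNA across generations without the nucleus, and the contrast asks whether a Star difference depended on the isolate. Per the design text the replicates are biological and an MY16_Star library failed, whereas the labels and table columns hold 3 MY16_Star and 2 N2_Star libraries, and the groups follow those. Every interaction value rests on these labels, and whether a library belongs to another group was not tested. Nothing further says how the replicates were kept apart, so the p-values measure the spread between these libraries.

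In C. elegans most endogenous small interfering RNAs are made by RNA-dependent RNA polymerases that copy a messenger RNA, so they are antisense to the gene they come from. Argonaute proteins bind them and silence or license the matching transcript in the cytoplasm or the nucleus. In the germ line such small RNAs can pass to progeny, and they keep acting after the trigger is gone. Small RNA of a gene therefore means here the reads counted against that gene, most of which are taken to be antisense to it.

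Gene counts ran between 1778321 in N2 replicate 3 and 19563562 in N2 replicate 2, and MY16 replicate 1 was the other shallow library with 1961627. Levels are given in CPM (counts per 1000000 counts of the genes tested, scaled between libraries by TMM), on which a floor of 3 counts corresponded to 0.134 to 1.95 CPM depending on the library, and such floors cover counting error only. Reads of MY16 worms were aligned to ce11, the genome of N2, so gene sequences that differ between the isolates can lose reads in MY16 and MY16_Star alike. How far this set the level of a gene was not tested. The 15363 piRNA genes, which yield small RNA from their own strand, together took 0.0941% to 0.218% of the gene counts. In whole worms fewer cells of a type and less RNA per cell cannot be told apart.

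The Star difference depended on the isolate in 45 genes, 21 with a more positive difference in MY16 than in N2 and 24 with a more negative one. Among the 21 were rcan-1, a regulator of the phosphatase calcineurin, and zip-2, a bZIP transcription factor of the response to bacterial infection, whose small RNA was 89.1-fold and 34.7-fold higher in MY16_Star than in MY16. Among the 24 were T28B8.1, whose small RNA was 63.1-fold higher in N2_Star than in N2, and nlp-40, a neuropeptide gene of the intestine that acts in the defecation cycle. Of 12241 genes tested, the 45 were 0.368%, the 21 higher genes 0.172% and the 24 lower genes 0.196%, at an adjusted p under 0.05 in edgeR's quasi-likelihood test with Benjamini-Hochberg adjustment. At an unadjusted p under 0.05 there were 521. The median interaction over all tested genes was 0.00 on the log2 scale, with a median standard error of 0.472.

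The parts of the contrast were unequal in number. MY16_Star minus MY16 alone passed the threshold in 125 genes, 1.02% of those tested, whereas N2_Star minus N2 alone passed in 3, or 0.0245%. The median standard error was 0.317 for MY16_Star minus MY16 and 0.347 for N2_Star minus N2, which has 1 library fewer. Leaving out single libraries gave 67 (without MY16 replicate 2) to 151 genes for MY16_Star minus MY16, and 2 to 15 (without N2 replicate 3) for N2_Star minus N2. Each of these differences shares libraries with the interaction, so their values are given side by side and not as separate evidence.

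**Figure D1:**
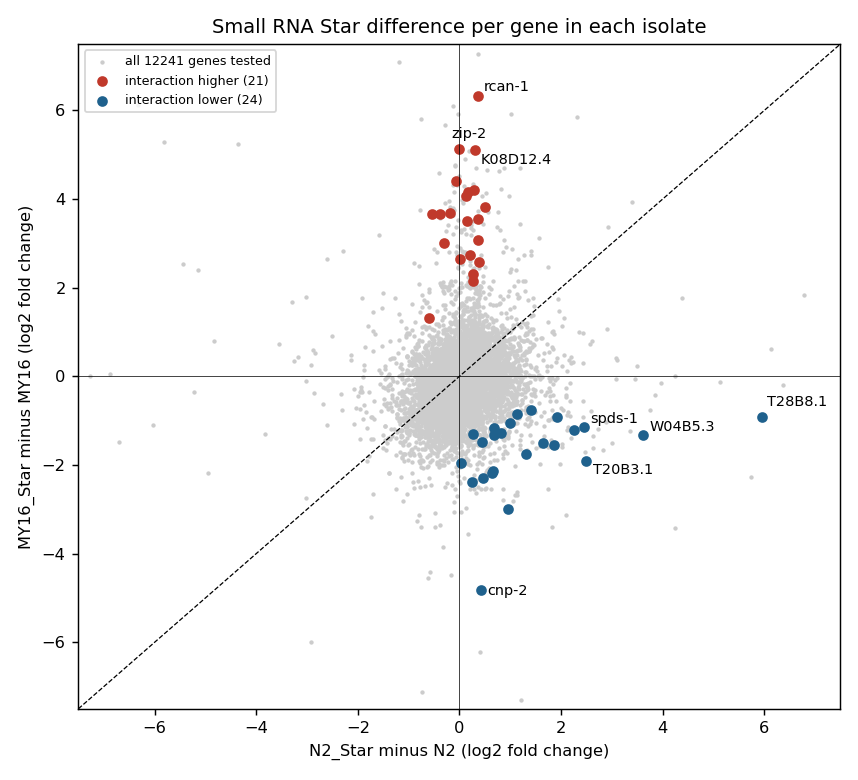
Star difference of each tested gene in N2 (horizontal axis, N2_Star minus N2, log2 fold change) and in MY16 (vertical axis, MY16_Star minus MY16, log2 fold change), with the genes past the threshold of the interaction in colour. The 21 higher genes lie well above 0 on the MY16 axis and close to 0 on the N2 axis, the 24 lower genes lie below 0 on the MY16 axis and at or right of 0 on the N2 axis, and 17 genes lie outside the axes.

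The 21 higher genes had a common form: small RNA was far lower in MY16 than in both N2 groups. The MY16_Star mean lay between the means of MY16 and N2. MY16_Star minus N2_Star had a median log2 fold change of -1.29 and a range of -3.11 to -0.01, so some genes hardly differed between the Star groups. All MY16_Star libraries were above all MY16 libraries in all 21, against 952 of all tested genes, or 7.78%. MY16_Star minus MY16 passed the threshold in all 21, with a median log2 fold change of 3.66 and a range of 1.32 to 6.33. N2_Star minus N2 passed in 0 of the 21 in edgeR, with a median of 0.17 and a range of -0.59 to 0.51, positive in 14 and negative in 7; 1 of the 21 had an unadjusted p under 0.05, and DESeq2 and limma voom called 0. The genes were picked by this contrast, so these counts and medians describe them and support nothing. Relative to the N2 mean, the median level of the 21 genes was 45.7% in MY16_Star (14.9% to 75.8%), 4.02% in MY16 (0.377% to 13.7%) and 112% in N2_Star (66.2% to 142%).

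For rcan-1 the small RNA stood at 71.0, 71.0 and 83.7 CPM in the MY16_Star libraries, against 0.574, 0.766 and 1.19 CPM in MY16. It stood at 281 and 291 CPM in N2_Star, against 242, 172 and 258 CPM in N2. All MY16_Star libraries were above all MY16 libraries, which held only 1, 5 and 8 counts, and the N2_Star libraries were above those of N2 by far less. The interaction was 5.97 ± 0.361 (log2 fold change ± standard error, edgeR adjusted p 1.36e-05), from 6.33 ± 0.281 in MY16_Star minus MY16 and 0.36 ± 0.202 in N2_Star minus N2. In the annotation rcan-1 lies on chromosome III (bases 5682302 to 5684098) and overlaps pst-2, and reads of overlapping genes may not have been told apart.

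For zip-2 the levels were 1214, 1149 and 989 CPM in MY16_Star, against 35, 32.9 and 28.6 CPM in MY16. They were 3612 and 3087 CPM in N2_Star, against 3213, 3169 and 3718 CPM in N2. The MY16 groups were far apart while the N2 groups overlapped, and MY16_Star reached 33.2% of the N2 mean. The interaction was 5.13 ± 0.320 (edgeR adjusted p 1.36e-05), with -0.01 ± 0.215 in N2_Star minus N2. The gene lies on chromosome III (834088 to 835811) and overlaps dos-3.

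K08D12.4, on chromosome IV, had 45.2, 39.6 and 41.6 CPM in MY16_Star, against 1.72, 1.38 and 0.894 CPM in MY16. It had 77.2 and 129 CPM in N2_Star, against 79.0, 85.6 and 85.9 CPM in N2. Its N2_Star libraries lay on either side of the N2 libraries, and its interaction was 4.80 ± 0.367 (edgeR adjusted p 9.39e-05). W09H1.4, on chromosome II (13183528 to 13185914), had 352, 370 and 330 CPM in MY16_Star, against 20.1, 15.2 and 24 CPM in MY16. Its levels were 1044 and 813 CPM in N2_Star, against 759, 710 and 1009 CPM in N2. MY16_Star was 17.8-fold above MY16, the N2 groups overlapped, and the interaction was 3.98 ± 0.345 (edgeR adjusted p 0.000207). W09H1.3 (13184429 to 13185003) lies wholly inside W09H1.4, with 574 bases shared, and had an interaction of 3.18 ± 0.307. Both are counted among the 21 higher genes. They were the only pair of the located genes past the threshold within 20 kb of each other, and the reads of the pair may not be separate.

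**Figure D2:**
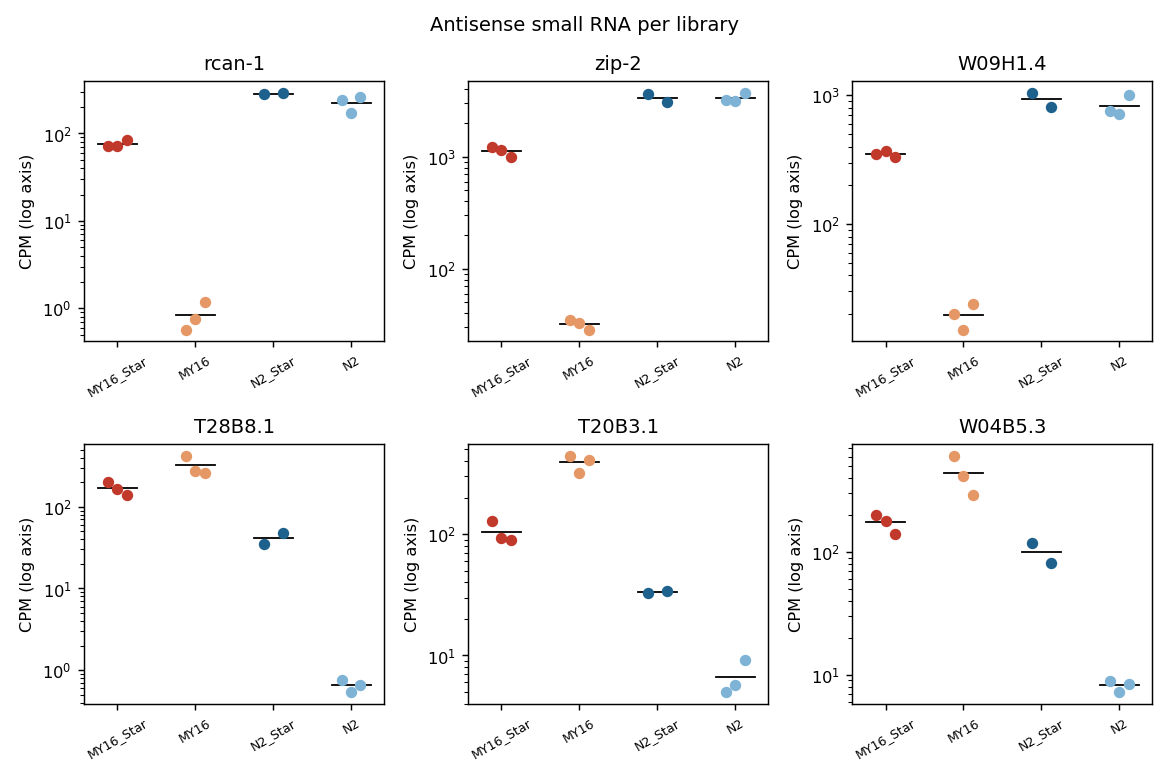
Small RNA level in CPM (log axis) of single genes in each of the 11 libraries, with a point per library and a line at the group mean. In rcan-1, zip-2 and W09H1.4 the MY16_Star libraries sit between low MY16 libraries and high N2_Star and N2 libraries; in T28B8.1 the N2_Star libraries, at 34.7 and 47.2 CPM, stand far above N2.

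The gene afmd-2, named for its likeness to arylformamidases of tryptophan breakdown, was at 101 ± 12.6 CPM in MY16_Star (SD, n = 3), against 7.80 ± 2.29 CPM in MY16 (SD, n = 3). The level in N2_Star was 124 and 77.1 CPM, against 83.9, 138 and 176 CPM in N2. MY16_Star thus reached 75.8% of the N2 mean, the highest share among the 21 genes, and the interaction was 4.04 ± 0.465 (edgeR adjusted p 0.00272). The gene overlaps dcap-2 and puf-3. In rnh-1.3, of the RNase H family that cuts RNA paired with DNA, the levels were 1418, 1012 and 932 CPM in MY16_Star, against 186, 252 and 236 CPM in MY16. They were 2492 and 2125 CPM in N2_Star, against 2182, 1767 and 1814 CPM in N2. The MY16 groups were 4.99-fold apart and the N2 groups overlapped. The interaction was 2.05 ± 0.341 (edgeR adjusted p 0.0279), and it stayed past the threshold in only 2 of 11 fits that each left out a library.

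Of the other genes taken by the naming rule, interactions were 4.48 in F22B7.9, 4.20 in ZK856.4, 3.96 in F26D11.1, 3.93 in F10E9.2, 3.86 in F09G2.1, 3.35 in W10G11.19 and 3.32 in gpr-158, with edgeR adjusted p-values between 0.00534 and 0.042. These genes belong to the 21, whose range of N2_Star minus N2 is given above. F26D11.1 rests on 38, 55 and 36 counts in MY16_Star, against 1, 1 and 3 counts in MY16. As each library was left out, F26D11.1 passed in 2 of 11 fits and gpr-158 in 3. W10G11.19 passed in 11, and F22B7.9, ZK856.4, F10E9.2 and F09G2.1 in 9 each. A single higher gene had both isolates without overlap and in opposite directions, and it is named for that after its values were seen. It was rpm-1, which codes for a ubiquitin ligase of the synapse, with 12.6, 19 and 14.7 CPM in MY16_Star against 5.74, 6.12 and 6.55 CPM in MY16. The same gene had 49.6 and 33.7 CPM in N2_Star, against 65.4, 64.1 and 59.2 CPM in N2. Over all tested genes this arrangement, MY16_Star wholly above MY16 with N2_Star wholly below N2, was found in 30, or 0.245%, and N2_Star wholly below N2 in 741, or 6.05%. The interaction of rpm-1 was 1.91 ± 0.308 (edgeR adjusted p 0.0224), and it passed in 4 of 11 fits with a library left out.

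The small RNA of the 24 lower genes was higher in MY16 than in N2, lower in MY16_Star than in MY16 and, in most of them, higher in N2_Star than in N2. All MY16_Star libraries were below all MY16 libraries in all 24, against 781 of all tested genes, or 6.38%. All N2_Star libraries were above all N2 libraries in 19 of the 24, against 1156 of all tested genes, or 9.44%. Both together held in those 19, against 78 of all tested genes, or 0.637%. The 19 include genes near the floor in N2. In cnp-2 the lowest N2_Star library, at 0.827 CPM, hardly exceeded the highest N2 library, at 0.820 CPM. In WBGene00015991 these were 1.75 and 1.29 CPM, and N2 replicate 3 held 1 count in each gene. The median log2 fold change of the 24 was -1.41 (-4.83 to -0.75) in MY16_Star minus MY16 and 0.98 (0.03 to 5.96) in N2_Star minus N2, again as a description of genes this contrast picked. The larger change was that of MY16_Star in 14 of them and that of N2_Star in 10. By the tests within each isolate, MY16_Star fell in 16 of the 24 and N2_Star rose in 3, while in 7 neither passed the threshold although the interaction did. Relative to the MY16 mean, the median level was 37.7% in MY16_Star (3.59% to 59.2%), 16.3% in N2_Star (0.306% to 67.6%) and 7.48% in N2 (0.203% to 26.8%).

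T28B8.1, on chromosome I (8134115 to 8135051), had the most negative interaction of the 45. Its small RNA was at 204, 164 and 138 CPM in MY16_Star, against 424, 276 and 262 CPM in MY16. It was at 34.7 and 47.2 CPM in N2_Star, against 0.761, 0.536 and 0.651 CPM in N2, the last of which are 13, 12 and 1 counts. Neither pair of groups overlapped, with Star low in MY16 and high in N2, and the change was mostly in N2_Star. The interaction was -6.89 ± 0.416 (edgeR adjusted p 1.36e-05). N2_Star rose by 5.96 ± 0.347 (edgeR adjusted p 1.92e-05), while MY16_Star minus MY16 was -0.92 ± 0.227 and did not pass the threshold (edgeR adjusted p 0.12).

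The other genes whose small RNA rose in N2_Star were W04B5.3 and T20B3.1. W04B5.3 had 201, 180 and 141 CPM in MY16_Star, against 611, 416 and 292 CPM in MY16. It averaged 99.8 ± 26.8 CPM in N2_Star (SD, n = 2), with 80.9 CPM in the lower library, against 8.96, 7.2 and 8.46 CPM in N2. MY16_Star fell to 39.6% of the MY16 mean, N2_Star rose by 3.62 ± 0.321 on the log2 scale, and the interaction was -4.95 ± 0.417 (edgeR adjusted p 0.000178). T20B3.1 had 129, 92.5 and 88.9 CPM in MY16_Star, against 444, 321 and 405 CPM in MY16. It had 33.0 and 34.3 CPM in N2_Star, against 4.98, 5.68 and 9.11 CPM in N2. The Star groups thus stood closer to each other than the isolates did, and the interaction was -4.41 ± 0.344 (edgeR adjusted p 9.39e-05). T20B3.1 overlaps T20B3.14.

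In C55C3.3 both Star groups were at a similar level, 80.3, 87.9 and 59.5 CPM in MY16_Star and 78.2 and 103 CPM in N2_Star. The isolates had 276, 242 and 251 CPM in MY16 and 31.6, 36.2 and 43 CPM in N2. Direct comparison of MY16_Star with N2_Star gave -0.25 ± 0.209 (edgeR adjusted p 0.46), and the interaction was -3.07 ± 0.285 (edgeR adjusted p 0.000383). A like pattern on a lower scale was seen in clc-26, a claudin-like gene, with 15.4 ± 0.773 CPM in MY16_Star (SD, n = 3), 34.7 ± 4.27 in MY16 (SD, n = 3), 15.4 and 13.5 in N2_Star and 9.16 ± 0.963 in N2 (SD, n = 3). The interaction of clc-26 was -1.85 ± 0.270 (edgeR adjusted p 0.0135). For pho-9, of the acid phosphatase family, and ptr-21, of the patched-related family, the interactions were -2.02 ± 0.274 and -2.80 ± 0.377 (edgeR adjusted p 0.0087 and 0.00853).

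For nlp-40 the levels were 142, 106 and 90.8 CPM in MY16_Star, against 343, 291 and 329 CPM in MY16. They were 11.5 and 9.18 CPM in N2_Star, against 2.22, 4.25 and 3.90 CPM in N2. Neither Star group overlapped its isolate, and N2_Star, although 2.98-fold above N2, reached only 3.21% of the MY16 mean. The interaction was -3.15 ± 0.376 (edgeR adjusted p 0.00352). In spds-1, the gene of spermidine synthase, N2_Star was 21 and 50.7 CPM, against 3.57, 7.51 and 10.4 CPM in N2, and in C53D5.5 it was 20.2 and 60.3 CPM, against 8.61, 7.69 and 9.11 CPM in N2. In both genes the second N2_Star library was well above the first, and the interactions were -3.61 ± 0.615 and -3.47 ± 0.515 (edgeR adjusted p 0.0307 and 0.0136). Without N2_Star replicate 2 the interaction of spds-1 was -2.89 (edgeR adjusted p 0.117) and that of C53D5.5 was -2.53 (edgeR adjusted p 0.0184). As each library was left out in turn, spds-1 passed in 4 of 11 fits and C53D5.5 in 9 of 11 (not without N2 replicate 1, edgeR adjusted p 0.0521, or N2 replicate 2, 0.058). In Y41D4A.7 and elmd-1, an ELMO domain gene, it was -2.84 ± 0.497 and -3.42 ± 0.610 (edgeR adjusted p 0.036 and 0.0389). Y41D4A.7 passed in 2 of 11 fits with a library left out, those without MY16 replicate 1 or MY16 replicate 3, and elmd-1 passed in 1 of 11, that without N2 replicate 3, where its value was -4.11.

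In some of the lower genes the difference was nearly all in MY16. The small RNA of cnp-2 was at 18.7, 9.02 and 6.03 CPM in MY16_Star, against 389, 291 and 261 CPM in MY16. It was at 0.827 and 1.09 CPM in N2_Star, or 13 and 5 counts, against 0.820, 0.536 and 0.651 CPM in N2, or 14, 12 and 1 counts. MY16_Star fell to 3.59% of the MY16 mean, and both N2 groups were near the floor. The interaction was -5.27 ± 0.768 (edgeR adjusted p 0.0135), and cnp-2 overlaps vps-2. Its call was lost without N2_Star replicate 1 (edgeR adjusted p 0.297), without N2_Star replicate 2 (0.0544) and without N2 replicate 2 (0.0522), with values of -5.53, -5.17 and -5.03.

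Among the lower genes outside the naming rule, 4 are named for their known roles after their values were seen. In cmk-1, which codes for a calcium/calmodulin-dependent kinase, MY16_Star fell to 19.3% of the MY16 mean with N2_Star minus N2 at 0.25 ± 0.272, and the interaction was -2.62 ± 0.330 (edgeR adjusted p 0.00507). In acs-16, an acyl-CoA synthetase gene, the interaction was -1.99 ± 0.366 (edgeR adjusted p 0.048), with MY16_Star at 25.5% of the MY16 mean. In egl-8, which codes for a phospholipase C beta, the differences were of nearly the same size and opposite, -1.06 ± 0.232 in MY16_Star minus MY16 and 0.99 ± 0.256 in N2_Star minus N2. Neither passed by itself, and the interaction was -2.05 ± 0.345 (edgeR adjusted p 0.0293). The levels of egl-8 were 210 ± 35.8 CPM in MY16_Star (SD, n = 3), 438 ± 43 in MY16 (SD, n = 3), 164 and 107 in N2_Star and 67.9 ± 18.2 in N2 (SD, n = 3). In hint-3, of the histidine triad family, N2_Star minus N2 was 1.4 ± 0.285 and the interaction was -2.15 ± 0.379 (edgeR adjusted p 0.0368). Without N2_Star replicate 1 the value of hint-3 was -1.45 (edgeR adjusted p 0.153), and without N2_Star replicate 2 it was -2.63. As each library was left out, cmk-1 passed in 10 of 11 fits, egl-8 in 4, and acs-16 and hint-3 in 2 each.

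**Figure D3:**
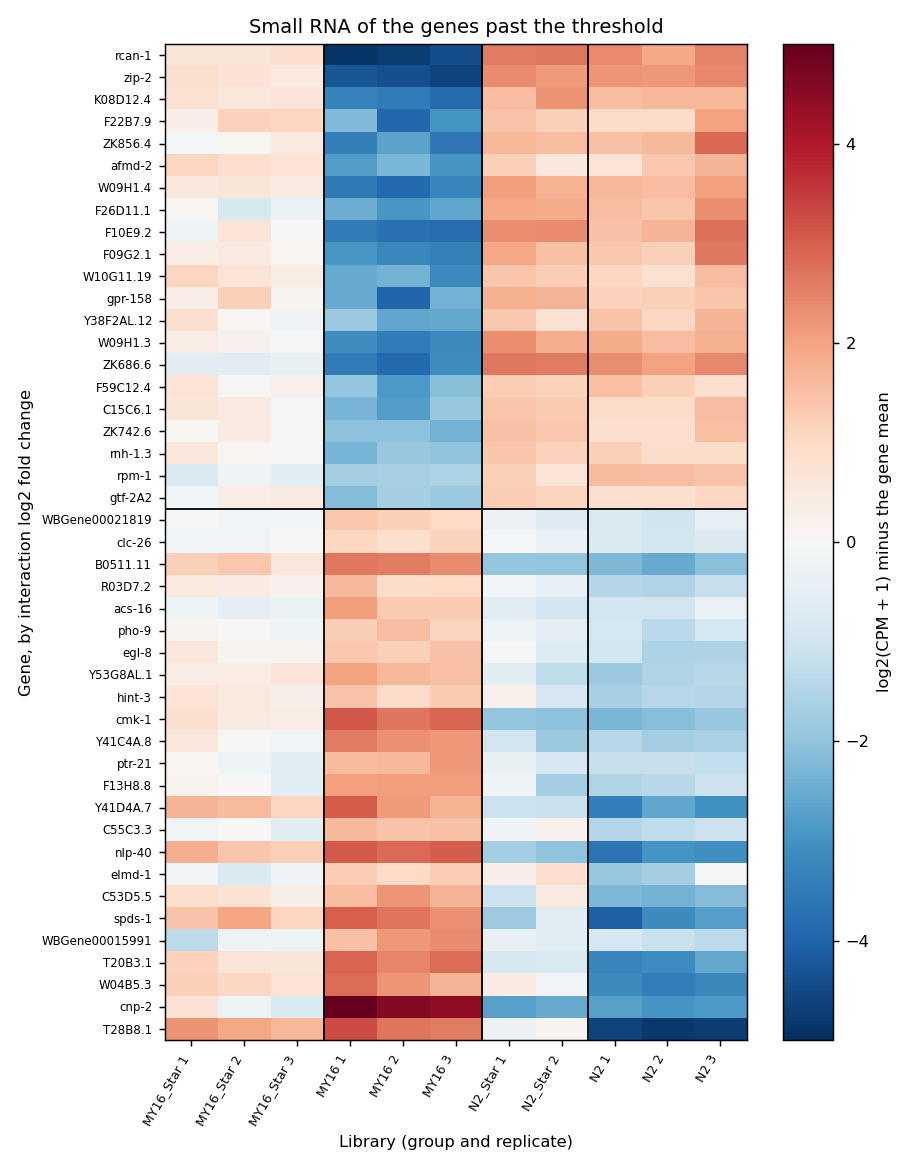
Small RNA of the 45 genes past the threshold in each of the 11 libraries, as log2(CPM + 1) minus the mean of the gene, with genes ordered by the interaction. In the 21 higher genes the MY16 columns are the low ones; in the 24 lower genes the MY16 columns are the high ones, and the MY16_Star columns lie between MY16 and N2.

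In all 45 genes the MY16_Star mean lay between the MY16 mean and the N2 mean, against 5220 of all tested genes, or 42.6%. The N2_Star mean lay between them in 30 of the 45, against 4486 of all tested genes, or 36.6%. This was uneven, with 7 of the 21 higher genes and 23 of the 24 lower genes. The larger share than over all tested genes was thus confined to the lower genes. The isolates themselves were far apart in the 45 genes. The size of MY16 minus N2 was at least 1.91 on the log2 scale in all 45, against a median of 0.41 over all tested genes, of which 24.2% reached 1. MY16 minus N2 uses 6 of the 11 libraries of the interaction, so a gene extreme in MY16 or N2 enters both.

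The Star difference averaged over the isolates was called in 44 genes, or 0.359%, 38 higher and 6 lower, and uses the same libraries as the interaction. The 6 with the smallest p were rcan-1, zip-2, K08D12.4, W09H1.3, W09H1.4 and T28B8.1, in which the average came mostly from a single isolate. MY16_Star minus MY16 was the larger change in 40 of the 44. Of the 44, 8 had the same sign and at least 0.5 log2 in both isolates, a condition met by 824 of all tested genes, or 6.73%. The 44 were picked by the average of these same differences, so that count describes them and supports nothing. Some of the 8 are named after their values were seen. In clc-7, another claudin-like gene, the difference was 1.80 in MY16_Star minus MY16 and 0.96 in N2_Star minus N2, and the average was 1.38 ± 0.205 (edgeR adjusted p 0.0146). In F19B6.3 it was -1.06 in MY16 and -0.67 in N2, with an average of -0.87 ± 0.150 (edgeR adjusted p 0.0356).

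The gene lists of small RNA pathways held no member past the interaction threshold in edgeR, and DESeq2 and limma voom each called 1, the silencing target Y48G1BM.6. The 21 Argonaute genes tested had a median interaction of 0.15, against 0.00 over all tested genes, and 0 of them had an unadjusted p under 0.05. The medians were 0.17 for 20 RNA polymerase and mutator genes, which amplify small RNA, 0.09 for 18 nuclear RNAi and heterochromatin genes, 0.06 for 16 Dicer and ERI complex genes, 0.19 for 20 piRNA biogenesis genes and 0.19 for 19 P granule and Z granule genes, with 0 at an unadjusted p under 0.05 in each. Of 5 systemic RNAi genes, with a median of -0.09, 1 reached that unadjusted p. It was sid-2, the receptor for double-stranded RNA in the gut, at -1.78 ± 0.564 (edgeR adjusted p 0.604). The 23 known targets of endogenous small RNA silencing had a median of 0.44, with 6 at an unadjusted p under 0.05, a level reached by 4.26% of all tested genes, and 0 past the threshold. The target with the smallest p, Y48G1BM.6, had 621 ± 28.9 CPM in MY16_Star, 281 ± 20.8 in MY16 (SD, n = 3 each), 964 and 795 in N2_Star and 1158 ± 280 in N2 (SD, n = 3). Its interaction of 1.54 ± 0.305 did not pass the threshold (edgeR adjusted p 0.0678).

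Large gene families gave 0 calls in edgeR as well, while DESeq2 called fbxa-150, col-38 and ugt-64 and limma voom called fbxa-150, clec-65 and ugt-64. Median interactions were 0.15 for 55 MATH and BTB genes, -0.05 for 180 F-box genes, -0.23 for 67 chemoreceptor genes, -0.47 for 55 C-type lectin genes, -0.05 for 100 nuclear hormone receptor genes, -0.35 for 17 pals genes and -0.11 for 53 histone genes. They were -0.14 for 28 collagen genes, -0.16 for 76 ribosomal protein genes and -0.39 for 69 detoxification enzyme genes. Members with an unadjusted p under 0.05 numbered 4, 13, 2, 3, 6, 1 and 1 in the first sentence of families and 2, 1 and 5 in the second, against 4.26% of all tested genes. Genes of these families can share reads with near-identical copies. The glucuronosyltransferase gene ugt-64 had 516 ± 74.3 CPM in MY16_Star, against 1528 ± 520 CPM in MY16 (SD, n = 3 each), and an interaction of -2.07 ± 0.472 that did not pass (edgeR adjusted p 0.138). For bath-20, a MATH and BTB gene, the levels were 8.60, 2.02 and 40 CPM in MY16_Star, against 3.45, 0.306 and 0.447 CPM in MY16, and 4732 and 3791 CPM in N2_Star, against 3656, 3712 and 5767 CPM in N2. Its MY16_Star libraries overlapped those of MY16 and both were far below the N2 groups, and the interaction of 4.37 ± 1.47 did not pass (edgeR adjusted p 0.693).

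Lists that mark tissues had medians of -0.53 for 67 spermatogenesis genes, -0.62 for 7 vitellogenin and yolk receptor genes, 0.07 for 47 oocyte and maternal germline genes, -0.30 for 7 body wall muscle genes, -0.27 for 9 neuron genes and -0.80 for 7 intestine genes. For 4 toxin-antidote genes the median was -0.04. None of these lists had a call in edgeR or DESeq2, limma voom called vit-2 and egl-21, and 1 neuron gene, unc-31, was the only member at an unadjusted p under 0.05, with an interaction of -2.01 ± 0.586 (edgeR adjusted p 0.464).

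Genes known from earlier results of these data did not all reach the threshold. haf-9, an ABC transporter of gut granules, had 23.9 ± 5.22 CPM in MY16_Star, against 127 ± 37.5 CPM in MY16 (SD, n = 3 each). It had 13.4 and 8.30 CPM in N2_Star, against 8.49, 10.4 and 17.6 CPM in N2, so the MY16 groups were apart and the N2 groups overlapped. The interaction was -2.41 ± 0.451 (edgeR adjusted p 0.0542), and without N2 replicate 3 it was -2.70 and passed (edgeR adjusted p 0.0186). tbc-8, a Rab GTPase-activating protein gene, had 18.3, 21.4 and 24.5 CPM in MY16_Star, against 229, 121 and 154 CPM in MY16. Its N2 groups overlapped, at 6.30 and 1.97 CPM in N2_Star, against 3.40, 3.26 and 10.4 CPM in N2. The interaction was -3.08 ± 0.637 (edgeR adjusted p 0.0845), and it passed without N2_Star replicate 2 (-3.56, edgeR adjusted p 0.045) or without N2 replicate 3 (-3.51, edgeR adjusted p 0.0179).

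plg-1, the mucin gene of the copulatory plug, had 3.97, 3.97 and 13.4 CPM in MY16_Star, against 0, 0.766 and 0.149 CPM in MY16, which are 0, 5 and 1 counts. It had 899 and 868 CPM in N2_Star, against 785, 711 and 1028 CPM in N2. MY16_Star thus stayed at 0.844% of the N2 mean, unlike the 14.9% or more of the 21 higher genes, and the interaction of 4.03 ± 0.882 did not pass (edgeR adjusted p 0.112). pals-37 is a gene whose small RNA was nearly confined to the MY16 groups, at 62.4, 95.3 and 110 CPM in MY16_Star, against 9.19, 13.2 and 14.7 CPM in MY16. In N2_Star it was 0.700 and 0.219 CPM, against 0.293, 0.224 and 1.3 CPM in N2, which are 11 and 1 counts, against 5, 5 and 2. MY16_Star rose by 2.80 ± 0.305 (edgeR adjusted p 0.000818), and N2_Star minus N2 was 0.86 ± 0.649. The interaction was 1.94 ± 0.752 and did not pass (edgeR adjusted p 0.967). For sax-2 the interaction was 1.17 ± 0.486 (edgeR adjusted p 1).

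All 43 of the 45 genes with a location in the annotation were protein coding, against 91.9% of the 11389 tested genes with a location. The genes past the threshold were spread over the autosomes, with 9 on chromosome I (0.425% of those tested there), 7 on II (0.347%), 12 on III (0.611%), 6 on IV (0.281%) and 8 on V (0.416%). On the X chromosome 1 of 1231 tested genes was called, or 0.0812%, and it was F59C12.4, with an interaction of 2.62 ± 0.417. Whether chromosomes differ in this share was not tested. Of the 43 genes, 12 overlap another coding gene.

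The same contrast in mRNA had no gene past the threshold. Of 13983 genes tested, 0, or 0%, were called in edgeR, 1830 had an unadjusted p under 0.05, and the median interaction was -0.11. DESeq2 called 83 and limma voom 1206. Of the 21 genes with a higher small RNA interaction, 20 were tested in mRNA, and 18 of them had a negative and 2 a positive mRNA interaction, with a median of -0.64. Both isolates entered that value. The median mRNA log2 fold change of the 20 was -0.29 in MY16_Star minus MY16 and 0.27 in N2_Star minus N2. The medians over all tested genes were -0.04 and -0.01. Over all tested genes 7907 were negative and 6074 positive. An unadjusted p under 0.05 was reached by 5 of the 20 (25%), against 13.1% of all tested genes. Of the 24 genes with a lower small RNA interaction, 17 had a negative and 7 a positive mRNA interaction, with a median of -0.30, and 3 (12.5%) had an unadjusted p under 0.05. The median mRNA log2 fold change of the 24 was 0.08 in MY16_Star minus MY16 and 0.28 in N2_Star minus N2.

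**Figure D4:**
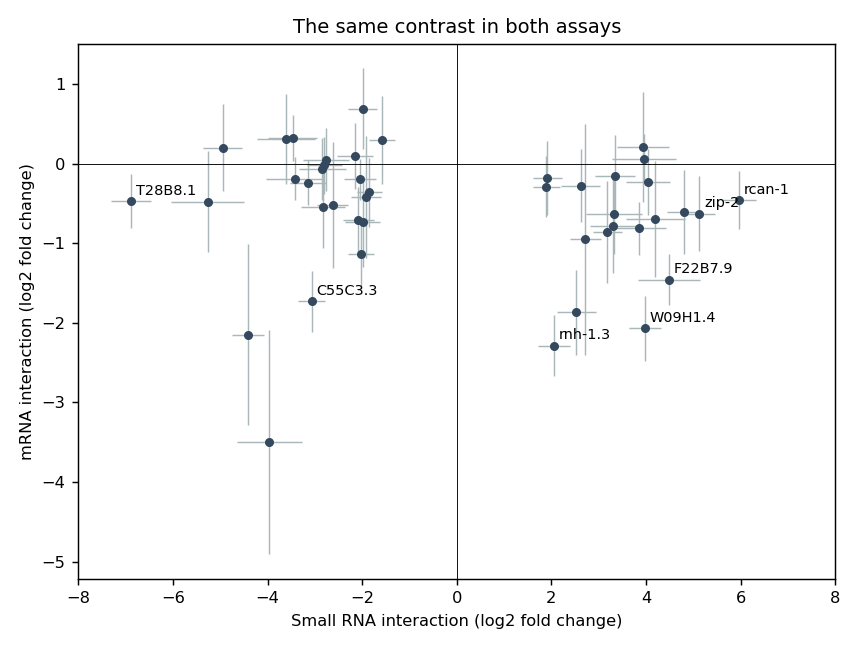
Interaction of the 44 genes past the small RNA threshold that were also tested in mRNA, with the small RNA log2 fold change on the horizontal axis and the mRNA log2 fold change on the vertical axis, and lines for the standard error. Of the genes with a higher small RNA interaction, 18 of 20 lie below 0 in mRNA. Of those with a lower small RNA interaction, 17 of 24 do. Each value combines the Star differences of both isolates.

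Among these 44 genes the mRNA interaction with the smallest p was that of rnh-1.3. Its mRNA was at 7.34, 6.11 and 7.12 CPM in MY16_Star, against 45.8, 28.9 and 27.1 CPM in MY16. In the other strain it was at 3.43, 6.52 and 5.07 CPM in N2_Star, against 4.56, 5.01 and 5.59 CPM in N2. The mRNA was thus high in MY16 alone, where its small RNA was lowest, and the mRNA interaction was -2.29 ± 0.382 (edgeR adjusted p 0.168), while within MY16 the mRNA fell by 2.31 in MY16_Star (edgeR adjusted p 0.0237). W09H1.4 also had less mRNA in MY16_Star than in MY16, at 4.95, 3.65 and 4.08 CPM in MY16_Star, against 20.1, 16.9 and 17.5 CPM in MY16. It was at 1.46, 0.681 and 0.935 CPM in N2_Star, against 0.999, 0.903 and 1.23 CPM in N2. Unlike in rnh-1.3, the MY16_Star libraries stayed above both N2 groups. MY16_Star mRNA fell by 2.10 on the log2 scale (edgeR adjusted p 0.0237), and the mRNA interaction was -2.07 ± 0.408 (edgeR adjusted p 0.266).

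By contrast, rcan-1 and zip-2, with the most positive small RNA interactions, had similar mRNA in both MY16 groups. rcan-1 mRNA lay between 10.1 and 14.4 CPM in MY16_Star, against 12.8 ± 1.37 CPM in MY16 (SD, n = 3), and zip-2 mRNA was 142 ± 23.4 CPM, against 163 ± 23.8 CPM (SD, n = 3 each). The mRNA interactions were -0.46 ± 0.368 for rcan-1 and -0.63 ± 0.472 for zip-2 (edgeR adjusted p 0.603 and 0.575), so differences of the size seen in rnh-1.3 were not measured there. The larger part was N2_Star minus N2, at 0.39 ± 0.259 and 0.43 ± 0.334. MY16_Star minus MY16 was -0.07 ± 0.261 and -0.20 ± 0.334. In C55C3.3, among the lower genes, mRNA was 2.89 ± 0.437 CPM in MY16_Star, against 2.29 ± 0.660 CPM in MY16, and 21.2 ± 4.57 CPM in N2_Star, against 5.04 ± 0.414 CPM in N2 (SD, n = 3 each). N2_Star mRNA of this gene rose by 2.07 ± 0.266 (edgeR adjusted p 0.0123) and its small RNA also stood above N2, while the mRNA interaction was -1.73 ± 0.380 (edgeR adjusted p 0.266).

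Some tissue markers differed between the groups in mRNA. The summed mRNA of 4 intestine markers was 20476 to 23816 CPM in MY16_Star, 17594 to 24900 in MY16, 31698 to 37923 in N2_Star and 20093 to 22855 in N2. That of 5 oocyte markers was 6816 to 8255, 5076 to 6792, 3447 to 5547 and 5609 to 6520 CPM in the same order of groups, and that of 6 germline markers 5264 to 6025, 4518 to 5387, 3349 to 4957 and 4758 to 5199 CPM. The 4 sperm markers summed to 2.58 to 14.5, 5.52 to 20.0, 16.5 to 28.8 and 22.9 to 30.5 CPM. The ranges were 1591 to 2649, 2478 to 3331, 2827 to 3501 and 2808 to 3114 CPM for 4 body wall muscle markers, 192 to 238, 183 to 217, 218 to 266 and 201 to 233 CPM for 4 neuron markers, and 928 to 1287, 1076 to 1520, 843 to 1299 and 1056 to 1364 CPM for 4 hypodermis markers. The sum of the intestine markers was thus higher in every N2_Star library than in any N2 library. Most of that sum was the vitellogenin gene vit-2, at 24984 ± 2799 CPM in N2_Star, against 15731 ± 1128 CPM in N2 (SD, n = 3 each). The sum therefore says little of the other intestine markers. Oocyte markers were higher in every MY16_Star library than in any MY16 library and lower in every N2_Star library than in any N2 library. The hypodermis ranges of all groups overlapped, as did those of the neuron markers between each Star group and its isolate. No marker was at 0 in all libraries. The part of tissue content in the interaction was not tested.

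The number of genes past the threshold moved with single libraries. It ranged from 20 to 80 as each of the 11 libraries was left out, against 45 with all. It was 80, of which 58 were lower, without the shallow N2 replicate 3. The number was 20 without N2_Star replicate 1, 23 without N2 replicate 2, 26 without N2 replicate 1, and 28 without MY16_Star replicate 2 or without MY16 replicate 2. The number of higher genes fell without either N2_Star library. There the filter kept 13094 genes (without replicate 1) and 13064 (without replicate 2), against 12241 with all libraries. The number of lower genes was 8 without N2 replicate 2, 11 without N2 replicate 1, 12 without MY16 replicate 2, and 13 without MY16_Star replicate 2 or MY16_Star replicate 3. Such numbers count every call of a fit, whether or not the gene was among the 45. With a single N2_Star library left, that library is assumed to vary like the other groups. Of the 45 genes, 13 passed in all 11 of these fits, 8 higher and 5 lower, and 0 of the 45 changed sign. The 13 were T28B8.1, rcan-1, zip-2, K08D12.4, T20B3.1, W04B5.3, W09H1.4, C55C3.3, W09H1.3, afmd-2, nlp-40, ZK686.6 and W10G11.19. Without both shallow libraries, MY16 replicate 1 and N2 replicate 3, an alternative chosen after seeing the data, 91 genes passed, 30 higher and 61 lower.

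**Figure D5:**
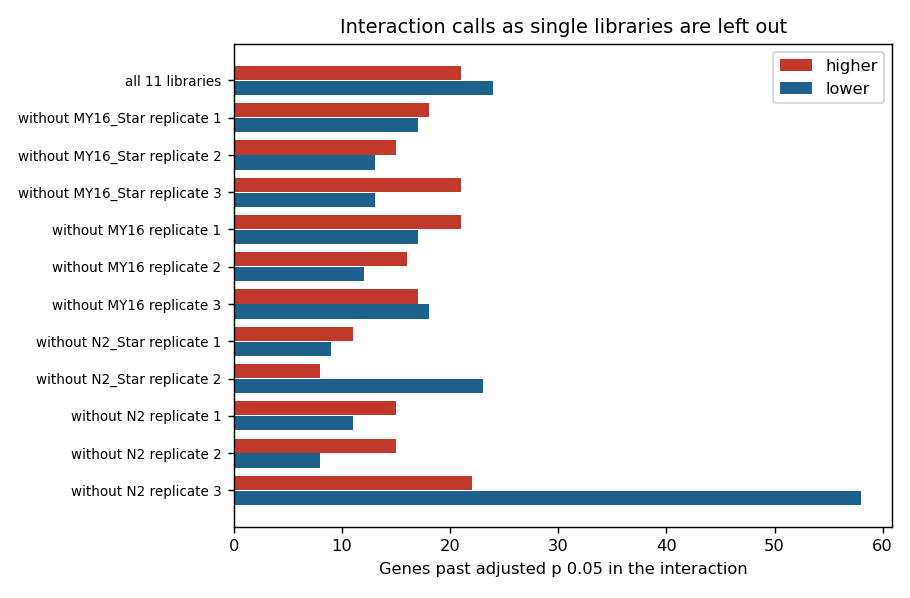
Number of genes past adjusted p 0.05 in the interaction as each library is left out, for the higher and the lower genes. The number of lower genes reaches 58 without N2 replicate 3 and drops to 8 without N2 replicate 2, and that of higher genes drops to 8 without N2_Star replicate 2.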

How the data were processed

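The deposited values were whole-number counts of reads per gene with no normalization, in a table of 11 small RNA libraries and a table of 12 mRNA libraries. Per the submitters' processing notes, the authors used cutadapt, FastQC, Bowtie2, HTSeq and DESeq2 with ce11; versions and strand settings are not given in the sources used here. RNA was taken up in TRIzol and libraries were made with a NEBNext small RNA kit, per the labels' protocols. The letters AS in the name of the small RNA table are undefined and were read as antisense from the low piRNA counts. The lines that name no gene, 38.7% to 46.6% of a small RNA library, stayed out of library sizes and tests. Symbols were matched for 44017 of 46904 gene IDs, and 1325 IDs share a symbol.

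Genes were filtered with filterByExpr, scaled by TMM and tested with edgeR 4.0.16 in R 4.3.3 (glmQLFit and glmQLFTest) in a model with the 4 groups. CPM is per 1000000 counts of the genes that passed the filter, TMM-scaled. Standard errors were derived from the quasi-likelihood test, as the absolute log2 fold change divided by the square root of the F statistic. Alternatives were DESeq2 1.42.0, limma 3.58.1 voom, other scalings and filters, a replicate block and each library left out. Named genes were the 12 most positive and 12 most negative interactions past adjusted p 0.05 with a group mean of at least 5 CPM, up to 10 with groups that cross without overlap, the member of each of 25 lists with the smallest p, 6 of the average difference and 12 known from earlier results. Members, lists and tests were chosen with earlier results of these data known. Same-numbered small RNA libraries did not all deviate together over the 4 groups. The correlation was 0.316, 0.117 and 0.364 between MY16_Star and MY16, but -0.247, 0.111 and -0.263 between MY16 and N2. It was -0.056 and 0.166 between N2_Star and N2. The 2 N2_Star libraries deviate from their mean as mirror images, so these values are not separate and cannot decide whether those libraries are paired. The replicate numbers were not used as pairs for the interaction. Between small RNA of MY16_Star and MY16 the 3 pairs each exceeded 0.1, and a block there moved 125 calls to 141. In mRNA the correlation was 0.42, -0.006 and 0.531 between MY16_Star and MY16. It was 0.191, -0.015 and 0.123 between N2_Star and N2. The mRNA interaction was fitted without a block, and with the number as a block it had 1 call.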

Additional observations from a re-analysis of the deposited data

Results flagged for a closer look

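The difference between Star worms and their isolate was itself tested between MY16 and N2 and passed adjusted p 0.05 (edgeR) in 45 genes. Values below are interaction log2 fold changes of small RNA. Where they are positive, MY16_Star minus MY16 exceeded N2_Star minus N2: rcan-1 5.97, zip-2 5.13, K08D12.4 4.80, F22B7.9 4.48, ZK856.4 4.20, afmd-2 4.04, W09H1.4 3.98, F26D11.1 3.96, F10E9.2 3.93, F09G2.1 3.86 and W10G11.19 3.35. To these come gpr-158 3.32, Y38F2AL.12 3.31, W09H1.3 3.18, ZK686.6 2.72, F59C12.4 2.62, C15C6.1 2.53, ZK742.6 2.20, rnh-1.3 2.05, rpm-1 1.91 and gtf-2A2 1.89. Where they are negative, MY16_Star minus MY16 was below N2_Star minus N2: T28B8.1 -6.89, cnp-2 -5.27, W04B5.3 -4.95, T20B3.1 -4.41, WBGene00015991 -3.96, spds-1 -3.61, C53D5.5 -3.47, elmd-1 -3.42, nlp-40 -3.15, C55C3.3 -3.07, Y41D4A.7 -2.84 and F13H8.8 -2.83. The others were ptr-21 -2.80, Y41C4A.8 -2.77, cmk-1 -2.62, hint-3 -2.15, Y53G8AL.1 -2.08, egl-8 -2.05, pho-9 -2.02, R03D7.2 -1.99, acs-16 -1.99, B0511.11 -1.92, clc-26 -1.85 and WBGene00021819 -1.58.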

How the results depend on the processing

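Counts of genes at adjusted p under 0.05 depended on the tool. For the small RNA interaction edgeR called 45, DESeq2 129 (sharing all 45) and limma voom 125 (sharing 44); other scalings and filters gave 45 to 57, leaving out single libraries 20 to 80, and leaving out MY16 replicate 1 and N2 replicate 3 together 91. For MY16_Star minus MY16 small RNA edgeR called 125, DESeq2 273, limma voom 574, and single libraries left out gave 67 to 151. For N2_Star minus N2 small RNA edgeR called 3, DESeq2 14, limma voom 43, single libraries left out 2 to 15 and both shallow libraries left out 19. For the small RNA average Star difference edgeR called 44, DESeq2 127, limma voom 312, single libraries left out 24 to 90 and both shallow libraries left out 124. For the mRNA interaction edgeR called 0, DESeq2 83, limma voom 1206 and single libraries left out 0 to 8. Single libraries that moved a count by over 1.5 times, beyond those of the interaction given in the report, were MY16_Star replicates 1, 2 and 3 (80, 74 and 81) and MY16 replicate 2 (67) for MY16_Star minus MY16, N2_Star replicates 1 and 2 (5 each) and N2 replicate 3 (15) for N2_Star minus N2, and for the average MY16_Star replicate 2 (26), MY16 replicates 2 and 3 (25 and 26), N2_Star replicate 1 (24) and N2 replicates 1, 2 and 3 (29, 24 and 90). For mRNA they were N2_Star replicate 1 (8) and MY16 replicate 1 (1). The cause of these differences was not tested. With the replicate number as a block, the small RNA interaction had 43 calls (34 shared with the 45), the mRNA interaction 1, and a block within the MY16 and MY16_Star libraries alone, chosen after seeing the data, gave 60. The block moved no other count by over 1.5 times. The interaction of peel-1, which was not called at -1.64, was 0.07 without MY16 replicate 3 and ranged from -2.31 to 0.07 as single libraries were left out. None of the 45 genes changed sign under any of these alternatives. Depth limits genes near 3 counts, or 1.95 CPM in the shallowest library, such as T28B8.1 and cnp-2 in N2.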
